A study of Apostichopus japonicus with 3 samples.

Results

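Integrins, cadherins and the linker proteins of the cell cortex were followed in the transcriptome of the sea cucumber Apostichopus japonicus, an echinoderm. Transcripts were assembled from the reads as isotigs, and 1 gene may be split over several of them. An isotig was taken as a member when the name of its first KEGG orthology hit contained integrin, talin, vinculin, filamin, paxillin, cadherin, catenin, dystonin, spectrin, plectin, tight junction or ankyrin and did not contain kinase. This gave 138 of the 21290 isotigs, in 38 orthologies. No name contained vinculin, and 2 isotigs were dropped because they were named kinases. By name, 93 members fell into 8 role classes: 18 integrin subunits, 9 adhesion adaptors (talin, filamin and paxillin), 12 cadherins, 2 catenins, 2 tight junction proteins, 17 spectrins, 6 ankyrins and 27 plakins (dystonin and plectin). The other 45 were taken in by the words alone. They were 16 disintegrin metalloproteinases, 27 ankyrin repeat proteins and 2 isotigs of beta-catenin-like protein 1, and they are described apart.

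Integrins are pairs of an alpha and a beta chain that span the membrane and bind the extracellular matrix outside the cell. Inside, talin binds the beta chain, and talin, filamin and paxillin join it to actin and to signalling proteins. Cadherins bind neighbouring cells to each other through calcium-dependent contacts, with alpha-catenin as a link to actin, and the seven-pass flamingo cadherins are known in flies and vertebrates for setting planar polarity of cell sheets. Spectrin tetramers of alpha and beta chains form a net under the membrane, ankyrin ties membrane proteins to that net, and the plakins dystonin and plectin tie adhesion sites to intermediate filaments and microtubules. In sea cucumbers the body wall is a thick collagenous dermis under an epidermis, whose stiffness the animal can change.

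The study asked how strong light and darkness alter gene expression. Messenger RNA was sequenced as 3 libraries: the control group in natural light of about 100 lux, a dark group held for 2 h in a covered tank without light, and a light group held for 2 h under about 2000 lux. Groups have 1 library each. How many animals were pooled, and their strain, age and genotype were not found in the labels. Replicate libraries are lacking, so variation between animals is unmeasured, no test between conditions was run, and a ratio describes 2 libraries. The intervals given are 95% counting intervals (exact conditional binomial on the reads of an isotig or orthology), which cover counting error only. Light and dark are both set against the same control library.

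The isotigs that passed the filter below held 1567797 (control), 1696099 (dark) and 1641954 (light) uniquely assigned reads, at least 99.8% of each library. The tissue label names body wall, while the source label names intestine. Names with collagen, fibrillin or tenascin, taken as marks of dermal matrix, had 41202 control reads over 45 isotigs. The word collagen also took in collagen-modifying enzymes, a collagenase and a macrophage receptor. Names of digestive enzymes had 8367 over 90 isotigs, so neither set was absent, although no isotig was named chymotrypsin and carboxypeptidase A names had 2 control reads in all. Troponin and tropomyosin names, which mark muscle, had 55 and 16 control reads, and no isotig was named calponin or transgelin. The dark library stands apart in scale. Its median log2 ratio to control over the 18225 tested isotigs was -0.31, while the light library had 0.00, and median-of-ratios size factors moved the dark value by 0.31. Folds and their intervals below are on the deposited scale of reads per library total unless size factors are named. Size factors raise every dark value relative to control.

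A filter of a mean of at least 1 RPKM (reads divided by the length of the isotig and by the reads of the library) over the 3 libraries kept 115 of the 138 members, 78 of them in the role classes. The 23 others had at most 5 reads in any library. Reads were found for 129 members in control, 117 in the dark library and 130 in the light library, and for 112 in all 3. The members together made up 0.814% of control reads (95% Wilson interval 0.801 to 0.829), 0.473% of dark reads (0.462 to 0.483) and 0.941% of light reads (0.926 to 0.956). Of the 138 names, 23 rest on a hit with an E-value above 1e-10 and are uncertain.

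In control, the highest levels per length among the members were those of spectrin beta. A spectrin beta isotig (isotig13789) had 348 RPKM and stood at rank 366 of the 19435 isotigs listed for that library. A second spectrin beta isotig (isotig24351) had 278 RPKM. Integrin beta 1, the common beta chain, had 222 RPKM for isotig18648 and 171 RPKM for isotig14706. A flamingo cadherin isotig (isotig17993, named cadherin EGF LAG seven-pass G-type receptor 1) had 215 RPKM, and the long filamin isotig (isotig13082) had 199 RPKM. The most abundant talin isotig (isotig14701) had 153 RPKM, and the most abundant ankyrin (isotig21039) had 135 RPKM. Dystonin, spread over 24 isotigs, reached 61.4 RPKM in the shortest of them (isotig29620) and 60.7 RPKM in isotig20713. The catenin isotigs were scarce, at 12.6 RPKM (isotig10606) and 5.09 RPKM (isotig25449).

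**Figure D1:**
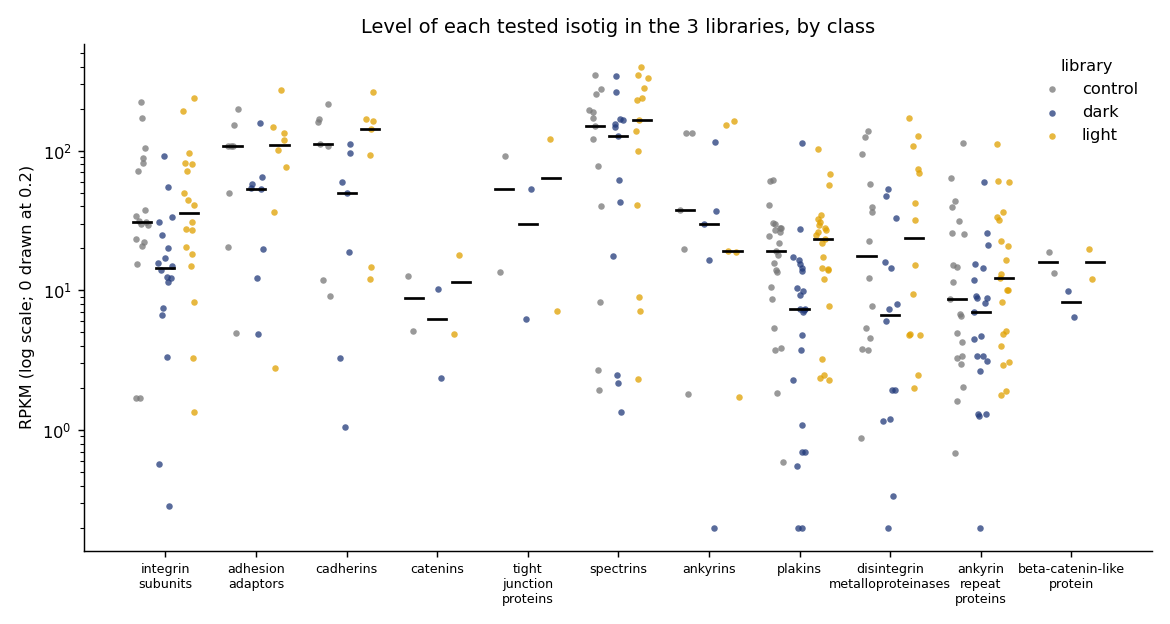
RPKM on a log scale of each of the 115 tested isotigs in the control, dark and light libraries, by class; each point is 1 isotig and black bars are class medians. The dark medians lie below the control and light medians in the integrin, cadherin and plakin classes, while the 3 spectrin medians lie close together, with a top value of 348 RPKM in control.

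In the dark library most members stood lower than in control, and the role classes differed in how far. On the deposited scale isotigs of integrin subunits, cadherins and plakins were mostly at least 2-fold lower. Talin orthology reads were 2.13-fold lower, and spectrins stayed close to the median of all isotigs. With size factors 10 of 18 integrin, 5 of 7 cadherin and 11 of 23 plakin isotigs were at least 2-fold lower. Dystonin as summed RPKM was less than 2-fold lower, with a log2 ratio of -0.73, or -0.42 with size factors. Of the 115 tested members, 66 were at least 2-fold lower and 2 at least 2-fold higher on the log2(RPKM + 0.5) scale, which understates the ratios of low isotigs. Among all 18225 tested isotigs 24.0% were lower and 7.09% higher by this rule. With size factors 48 members were lower and 3 higher, against 16.6% and 11.8% of all. Named isotigs as a whole were also low: 29.7% of them were lower and 4.20% higher. Their median log2 ratio was -0.56, beside -0.31 for all isotigs. Every member is named, so distances from the median of all isotigs given below would be smaller from named ones where a class lies lower. With a mean of at least 20 reads over the libraries, 43 of 68 members were lower and 0 higher, against 19.1% and 2.82% of all. At that depth 27.0% of named isotigs were lower. Summed by orthology (RPKM over all its isotigs), 19 of the 36 tested orthologies of members were lower and 1 higher, against 25.9% and 1.91% of all 3300. With size factors 10 of the 36 were lower and 1 higher, against 13.9% and 5.36%. The 9 orthologies that were lower on the deposited scale alone were integrin alpha 8 and alpha 9, talin, flamingo receptor 1, tight junction protein 4, plectin, ADAM17, ankyrin repeat and SOCS box protein 3 and the phosphatase 6 subunit A. The 8 role classes had 43 lower and 0 higher of 78, or 31 and 1 with size factors. In bulk tissue, fewer cells of a type and less RNA per cell cannot be told apart.

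**Figure D2:**
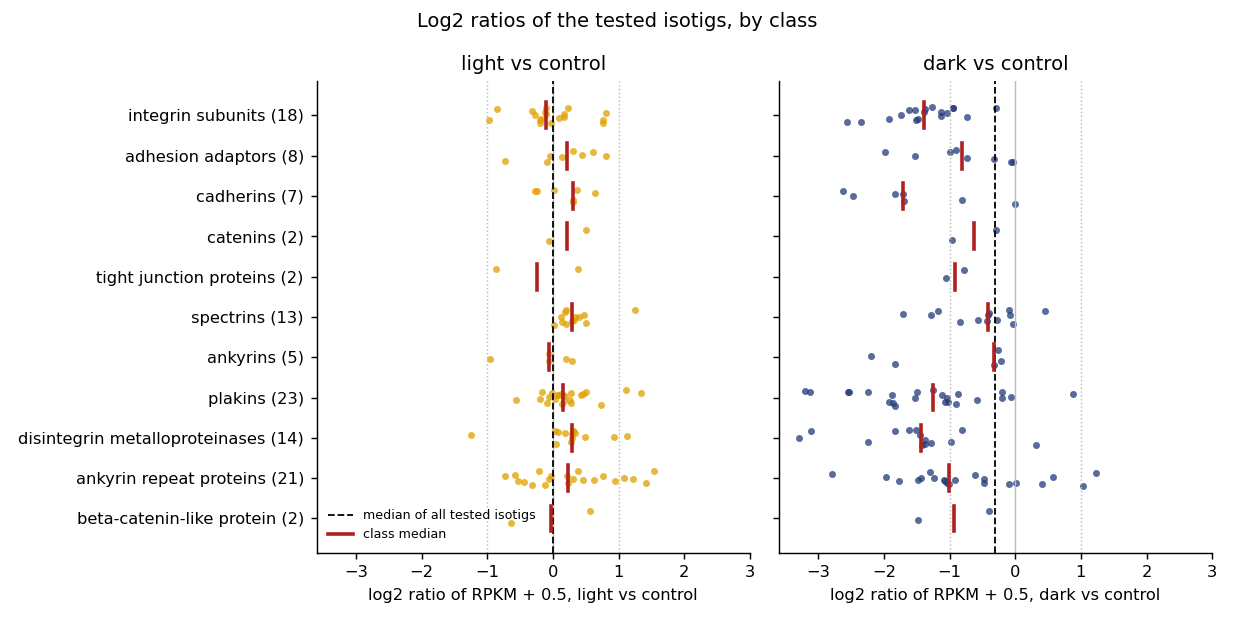
Log2 ratio of RPKM + 0.5 for each tested isotig, light vs control (left) and dark vs control (right), by class with the number of tested isotigs; red bars are class medians, the dashed line is the median of all tested isotigs and dotted lines mark 2-fold. In the dark panel the integrin median is -1.39 and the spectrin median -0.41, and in the light panel all class medians lie within 2-fold.

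All but 1 of the integrin isotigs stood below the median of all isotigs in the dark library. All 18 passed the filter. At least 2-fold lower were 14 and higher 0, against 24.0% and 7.09% of all isotigs. With size factors 10 were lower, against 16.6% of all. The integrin median log2 ratio was -1.39, which is 1.08 below the median of all isotigs, and the values ran from -2.57 to -0.29. Integrin beta 1, summed over its 7 isotigs, had 1299 control, 482 dark and 1425 light reads. Dark was the low library, 2.91-fold below control (2.62 to 3.24) or 2.34-fold with size factors (2.10 to 2.60), and light and control were close. Its isotigs were not lowered evenly. Isotig10927 had 192 control, 40 dark and 187 light reads, 5.19-fold lower in the dark (3.68 to 7.49). The smaller isotig16966 had 37, 6 and 36 reads and was 6.67-fold lower (2.79 to 19.3). At the other end, isotig15884 had 56, 31 and 100 reads and was 1.95-fold lower (1.24 to 3.13), so that the intervals of isotig10927 and isotig15884 do not overlap. The abundant isotigs lay between them: isotig14706 was 3.10-fold lower (2.55 to 3.79), isotig18648 2.42-fold (1.97 to 2.97) and isotig13462 2.64-fold (2.11 to 3.33).

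The alpha chains, which carry much of the choice of matrix ligand, were lower in the dark in every orthology. Integrin alpha 8, which in vertebrates pairs with beta 1 and binds ligands with the RGD motif, had 541, 226 and 519 reads over 5 isotigs in control, dark and light. It was 2.59-fold lower in the dark (2.21 to 3.04) or 2.08-fold with size factors (1.77 to 2.44), and its longest isotig (isotig13117), with 433, 178 and 419 reads, was 2.63-fold lower (2.20 to 3.15). The exception among the integrins was isotig21911, also named alpha 8, with 16, 14 and 9 reads and an interval of 0.565 to 2.73 around a 1.24-fold lower dark value. The name of isotig21911 rests on an E-value of 3e-08 and is uncertain. Integrin alpha 6, known in vertebrates as a laminin receptor chain, had 115, 43 and 135 reads and was 2.89-fold lower (2.02 to 4.21). Integrin alpha 4 (isotig19713) had 44, 16 and 37 reads, 2.97-fold lower (1.65 to 5.65). Integrin alpha 9 had 61, 25 and 79 reads over 3 isotigs, 2.64-fold lower (1.63 to 4.39). Integrin alpha 7 (isotig07033), another laminin receptor chain in vertebrates, had 38, 21 and 35 reads, 1.96-fold lower (1.12 to 3.51). With size factors it was 1.57-fold lower, with an interval of 0.898 to 2.82 that holds 1. The chain numbers are those of the KEGG names.

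Adaptors that join integrins to actin were divided in the dark library. Talin had 714 control, 362 dark and 754 light reads over 5 isotigs, 2.13-fold lower in the dark (1.88 to 2.43) or 1.71-fold with size factors (1.51 to 1.95). Its most abundant isotig (isotig14701) had 358, 134 and 364 reads and was 2.89-fold lower (2.36 to 3.55). Isotig14054, also named talin, had 55, 57 and 102 reads, with a log2 ratio of -0.06 in the dark that became 0.25 with size factors. The talin isotigs thus differed among themselves. Filamin, which crosslinks actin and binds integrin tails, was divided too. The long isotig13082 had 1210, 1047 and 1733 reads and was 1.25-fold lower in the dark (1.15 to 1.36), a log2 ratio of -0.32 that lies only 0.01 below the median of all isotigs. The short isotig00470 had 98, 26 and 158 reads and was 4.08-fold lower (2.62 to 6.55). Uniquely assigned reads covered only 36.8% of its length in control, 34.4% in the dark and 37.0% in light. The ratio of isotig00470 thus does not describe its whole length. Paxillin, a scaffold of adhesion sites, had 335, 206 and 409 reads over 2 isotigs and was 1.76-fold lower (1.47 to 2.10). The name of one of these (isotig17968; 161, 93 and 209 reads) rests on an E-value of 1e-09. It was lower in the dark as well, 1.87-fold (1.44 to 2.44). Of the 8 tested adaptors 2 were at least 2-fold lower under both scalings, none higher, a share near the 24.0% (16.6% with size factors) of all isotigs. Their median log2 ratio was -0.82, 0.50 below all isotigs.

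Cadherins were represented almost wholly by the flamingo type. Flamingo receptor 1 had 1081 control, 553 dark and 1113 light reads over 8 isotigs and was 2.11-fold lower in the dark (1.91 to 2.35) or 1.70-fold with size factors (1.53 to 1.88). Flamingo receptor 2 had 187, 35 and 304 reads over 3 isotigs. It was 5.78-fold lower in the dark (4.01 to 8.55), and nearly all of these reads came from isotig17019 with 178, 34 and 292. Within receptor 1, isotig17993 had 322, 97 and 416 reads and was 3.59-fold lower (2.85 to 4.55). Isotig13423, with 572, 353 and 506 reads, was 1.75-fold lower (1.53 to 2.01). A short isotig with a weak hit (isotig29069, E-value 1e-06) had 53, 57 and 46 reads, and its direction in the dark depends on the scaling, with a log2 ratio of -0.01 that became 0.31 with size factors. Of the 7 tested cadherins 5 were at least 2-fold lower and none higher, with the same counts under size factors. Among all isotigs 24.0% were lower, or 16.6% with size factors. The cadherin median log2 ratio was -1.71. Cadherin 23, known in vertebrates for the tip links of hair cells, had 0, 1 and 3 reads and was not tested. No isotig was named as a classical cadherin of the vertebrate epithelial or neural kind.

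The proteins under the cell-cell contacts had few isotigs. Tight junction protein 1 (isotig13112), a scaffold known in vertebrates as ZO-1, had 456, 285 and 626 reads and was 1.73-fold lower in the dark (1.49 to 2.01). Tight junction protein 4 (isotig19144) had 18, 9 and 10 reads, and no difference was detectable at this depth. Alpha-catenin had 20, 16 and 28 reads over 2 isotigs, a dark difference of 1.35-fold lower with an interval of 0.666 to 2.79, likewise not detectable.

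**Figure D3:**
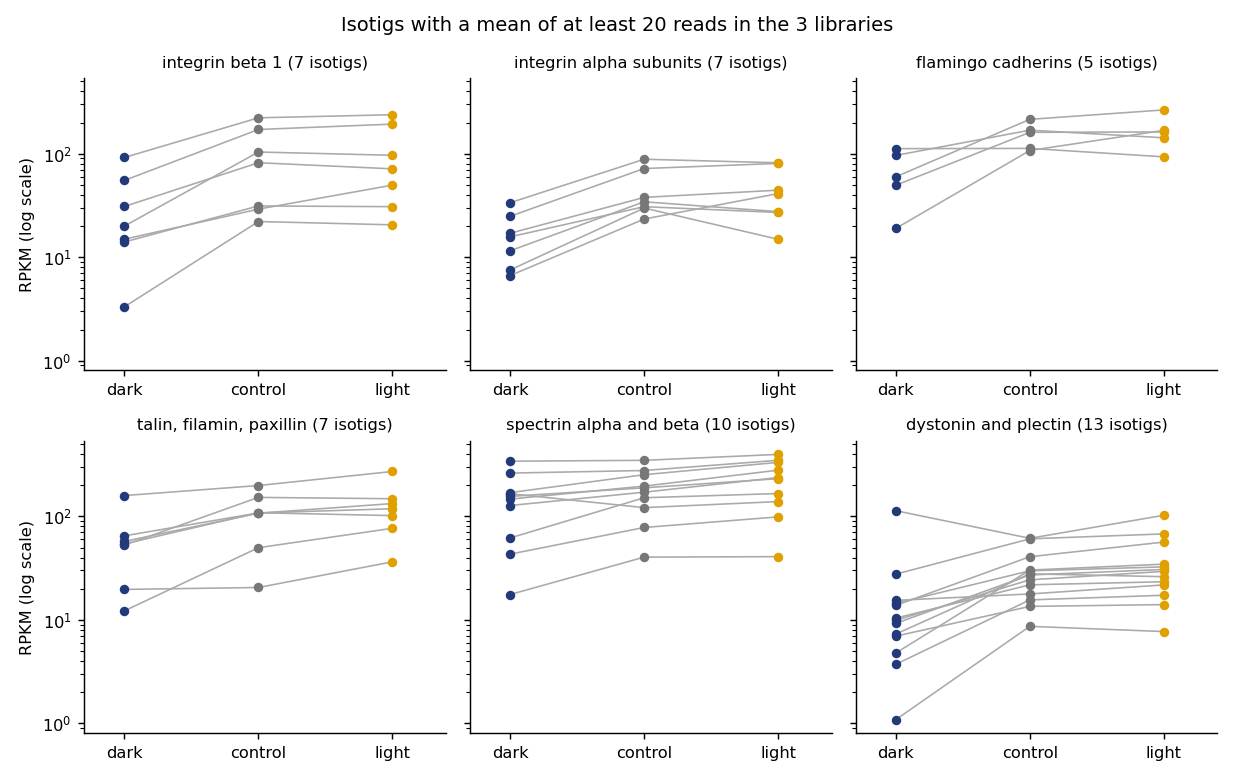
RPKM on a log scale of the members with a mean of at least 20 reads in the dark, control and light libraries, for 6 families; each line joins the values of 1 isotig. The lines of integrin beta 1 rise from dark to control for all 7 isotigs, for example from 55.2 to 171 RPKM for isotig14706, while several spectrin lines are flat.

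Spectrins lay nearer to control than the adhesion receptors in the dark library. Spectrin alpha had 856 control, 990 dark and 1082 light reads over 3 isotigs. Its dark ratio was 1.07 (0.975 to 1.17) on summed reads and the log2 ratio of summed RPKM was -0.10, which turned to 0.22 with size factors. Its sign therefore differs between measures and scalings. One of its isotigs (isotig13451), with 403, 594 and 483 reads, was 1.36-fold higher in the dark (1.20 to 1.55). Spectrin beta had 2572, 2160 and 3291 reads over 14 isotigs and was 1.29-fold lower (1.22 to 1.36), 1.03-fold with size factors (0.975 to 1.09), or by a log2 ratio of -0.06 of summed RPKM with size factors. The most abundant isotig (isotig13789), with 1003, 1064 and 1199 reads, had a log2 ratio of -0.03 on the deposited scale and 0.29 with size factors. Isotig09523, with 450, 199 and 518 reads, was 2.45-fold lower (2.07 to 2.90). Of 13 tested spectrins 3 were at least 2-fold lower and none higher. With size factors 1 was lower, and the first count is near the background of 24.0%. Their median of -0.41 lay 0.10 below that of all isotigs, with 8 of 13 below the latter, and above the -0.56 of named isotigs. The counting intervals of integrin beta 1 and of spectrin alpha do not overlap, but no test of the difference between classes was possible.

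Ankyrin, the linker between membrane proteins and spectrin, had 332, 242 and 358 reads over 6 isotigs and was 1.48-fold lower in the dark (1.25 to 1.76). This came mainly from isotig26709, with 93, 28 and 119 reads, 3.59-fold lower (2.33 to 5.69). The most abundant ankyrin (isotig21039), with 152, 141 and 182 reads, had a log2 ratio of -0.22 that turned to 0.10 with size factors. Of 5 tested ankyrins 2 were at least 2-fold lower under both scalings, 1 of which (isotig21136) had 2, 0 and 2 reads. Among all isotigs 24.0% were lower (16.6% with size factors), and a count from 5 isotigs cannot be set apart from that share. With a mean of at least 20 reads 1 of 3 was lower, against 19.1% of all.

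Plakins, which link adhesion sites to filaments, were mostly lower in the dark library. Dystonin had 703 control, 316 dark and 817 light reads over 24 isotigs, 2.41-fold lower in the dark (2.10 to 2.76) or 1.93-fold with size factors (1.69 to 2.21). Plectin, in 3 isotigs, had 105, 46 and 146 reads, 2.47-fold lower (1.73 to 3.57). Of 23 tested plakins 16 were at least 2-fold lower and 0 higher, against 24.0% and 7.09% of all isotigs. Size factors gave 11 and 1, against 16.6% and 11.8%. The plakin median log2 ratio was -1.26, 0.95 below all isotigs. Lowest among the dystonin isotigs averaging 20 reads or more were isotig19114 with 41, 7 and 49 reads (6.33-fold lower, 2.81 to 16.7) and isotig08409 with 59, 8 and 55 (7.98-fold lower, 3.79 to 19.3). Isotig15687 had 31, 8 and 36 reads and isotig15177 had 60, 17 and 59, and both were low in the dark only. Isotig13586 had 12, 0 and 8 reads and was at least 4.33-fold lower in the dark when 3 counts stand in place of 0, while its counting interval starts at 3.01-fold. Against these, isotig16284 had 32, 30 and 41 reads, and its log2 ratio of -0.20 turned to 0.11 with size factors. The short isotig29620 had 16, 32 and 28 reads, with an interval for the dark ratio of 0.985 to 3.61. Dystonin isotigs are many and partly low in reads, and which of them are pieces of 1 long transcript is not given by the files.

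The disintegrin metalloproteinases, which the words took in, were mostly lower in the dark library too. ADAM10 and ADAM17 are membrane proteases that cut the outer parts of surface proteins, cadherins among them in vertebrates. ADAM10 had 603, 245 and 793 reads over 2 isotigs and was 2.66-fold lower (2.29 to 3.10); its main isotig (isotig13190) had 580, 240 and 747. ADAM12 had 421, 158 and 480 reads over 5 isotigs and was 2.88-fold lower (2.39 to 3.48). ADAM17 had 38, 17 and 53 reads and was 2.42-fold lower (1.33 to 4.57). Of 14 tested isotigs in this class 11 were at least 2-fold lower and 0 higher, with the same counts under size factors. Among all isotigs 24.0% were lower, or 16.6% with size factors. The class median log2 ratio was -1.43. Secreted forms with thrombospondin motifs included number 2 (48, 19 and 53 reads; 2.73-fold lower, 1.58 to 4.92) and number 6 (isotig13967) with 21, 1 and 27 reads. The latter ratio rests on 1 dark read, 22.7-fold lower with an interval of 3.65 to 939.

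Ankyrin repeat proteins were less uniform. Of 21 tested isotigs 11 lay at least 2-fold below control and 2 above it, against 24.0% and 7.09% of all isotigs. Under size factors 5 and 2 did, against 16.6% and 11.8%, which is near the background. The 2 higher ones had at most 9 reads in any library. Regulatory ankyrin repeat subunit A of protein phosphatase 6 had 276, 132 and 344 reads over 13 isotigs, 2.26-fold lower in the dark (1.83 to 2.80). An isotig of an ankyrin only family (isotig14095) had 303, 172 and 312 reads, 1.91-fold lower (1.57 to 2.31). Beta-catenin-like protein 1, a nuclear protein associated with the spliceosome and not an adhesion protein, had 43, 23 and 43 reads, 2.02-fold lower (1.19 to 3.51). Subunits B and C of the phosphatase 6 complex had 93, 62 and 95 reads (1.62-fold lower, 1.16 to 2.27) and 50, 21 and 60 reads (2.58-fold lower, 1.52 to 4.51). The SHANK scaffold, known from vertebrate synapses, had 29, 22 and 33 reads, with no difference detectable at this depth.

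**Figure D4:**
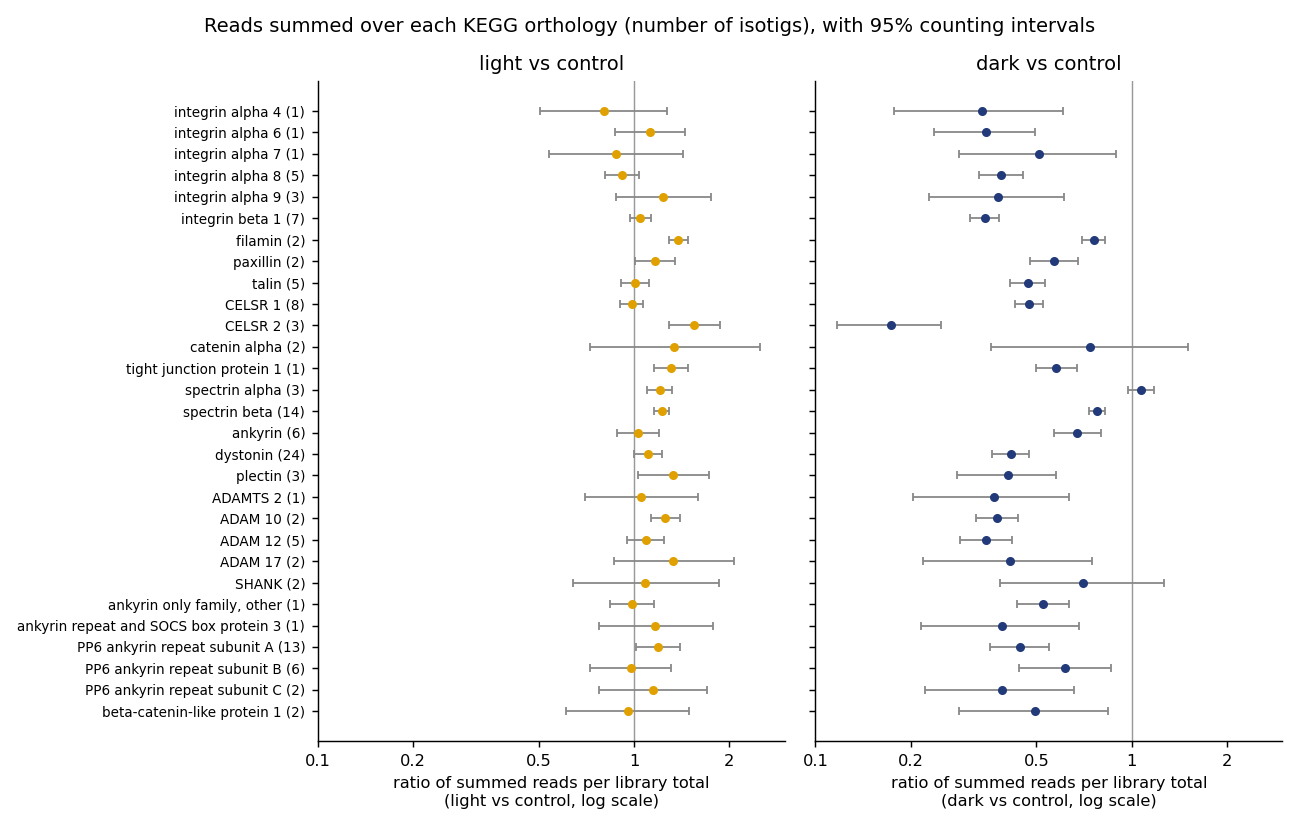
Ratio of reads per library total, on a log scale, for each orthology of the members with a mean of at least 20 summed reads, light vs control (left) and dark vs control (right); bars are 95% counting intervals and numbers in brackets are isotigs. In the dark panel flamingo receptor 2 (CELSR 2) lies farthest left, at 0.173, and spectrin alpha lies at 1.07; in the light panel filamin (1.38) and flamingo receptor 2 (1.55) lie to the right of 1.

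Under strong light the members stood close to control. Spectrins, filamin, tight junction protein 1 and flamingo receptor 2 had somewhat more reads, while integrin beta 1 and talin were within a few percent of control. Among the 115 tested members, 8 lay 2-fold or more above control and 1 below, against 7.77% and 7.22% of all isotigs, so the count of higher members was near the background. All 9 averaged under 20 reads. They included a spectrin beta isotig (isotig18120) with 4, 4 and 11 reads. None of the 68 better-read members was 2-fold apart, against 1.54% higher and 1.79% lower of all isotigs read as deeply. By orthology 3 of 36 were higher and 0 lower, against 3.12% and 2.33%. The median log2 ratio of the members was 0.19, beside 0.00 for all isotigs and 0.06 for named ones. Size factors moved it to 0.17.

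Spectrins stood slightly above control after strong light. All 13 tested spectrin isotigs had log2 ratios above the median of all isotigs, between 0.02 and 1.25, with a class median of 0.29. The median of named isotigs was 0.06. Cadherins had a median of 0.30, with 5 of 7 above the median of all isotigs. Disintegrin metalloproteinases also had 0.30, with 13 of 14 above it, while integrins had -0.10 and ankyrins -0.05. A median of this size was thus not particular to spectrins. Spectrin alpha was 1.21-fold higher (1.10 to 1.32) and spectrin beta 1.22-fold higher (1.16 to 1.29). Spectrin beta isotig14184, with 507 control, 411 dark and 757 light reads, was 1.43-fold higher (1.27 to 1.60). These values are small, and without replicate libraries they cannot be set against variation between animals.

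Among adaptors, filamin was 1.38-fold higher under strong light (1.29 to 1.48) and its long isotig (isotig13082) 1.37-fold (1.27 to 1.47). The talin isotig14054 was 1.77-fold higher (1.26 to 2.50), while talin as an orthology had a ratio of 1.01 (0.909 to 1.12), whose direction depends on the scaling. Paxillin had 1.17 (1.01 to 1.35). Tight junction protein 1 was 1.31-fold higher (1.16 to 1.48).

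Flamingo receptor 2, the lowest in the dark among orthologies with a mean of at least 20 summed reads, was 1.55-fold higher under strong light (1.29 to 1.87). Receptor 1 had a ratio of 0.983 (0.903 to 1.07), with isotig17993 1.23-fold higher (1.06 to 1.43) and isotig13423 1.18-fold lower (1.05 to 1.34). Thus isotigs of the same orthology lay on both sides of control.

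Integrins as orthologies were near control under strong light. Integrin beta 1 had a ratio of 1.05 (0.971 to 1.13) and integrin alpha 8 of 0.916 (0.810 to 1.03). Single isotigs differed more. Integrin beta 1 isotig15884 was 1.70-fold higher (1.22 to 2.41) and integrin alpha 8 isotig21234, with 26, 8 and 48 reads, 1.76-fold higher (1.07 to 2.96). Integrin alpha 8 isotig18257, with 44, 12 and 23 reads, was 2.00-fold lower (1.18 to 3.48). The isotigs of alpha 8 thus lay on both sides of control. Of the 18 integrins 0 were at least 2-fold apart on the log2(RPKM + 0.5) scale, and the median was -0.10.

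Ankyrin isotig16789, with 64 control, 55 dark and 34 light reads, was 1.97-fold lower under strong light (1.28 to 3.08), whereas isotig21039 had a ratio of 1.14 (0.917 to 1.43). Dystonin had a ratio of 1.11, with an interval from just above 1 to 1.23, and plectin of 1.33 (1.03 to 1.72). ADAM10 was 1.26-fold higher (1.13 to 1.40), its short isotig27535, with 23, 5 and 46 reads, 1.91-fold (1.13 to 3.30). ADAM12 had 1.09 (0.953 to 1.24). Ankyrin repeat and SOCS box protein 5, of a family that recruits substrates to ubiquitin ligases, was 2.43-fold higher (1.17 to 5.41) on 11 control and 28 light reads.

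**Figure D5:**
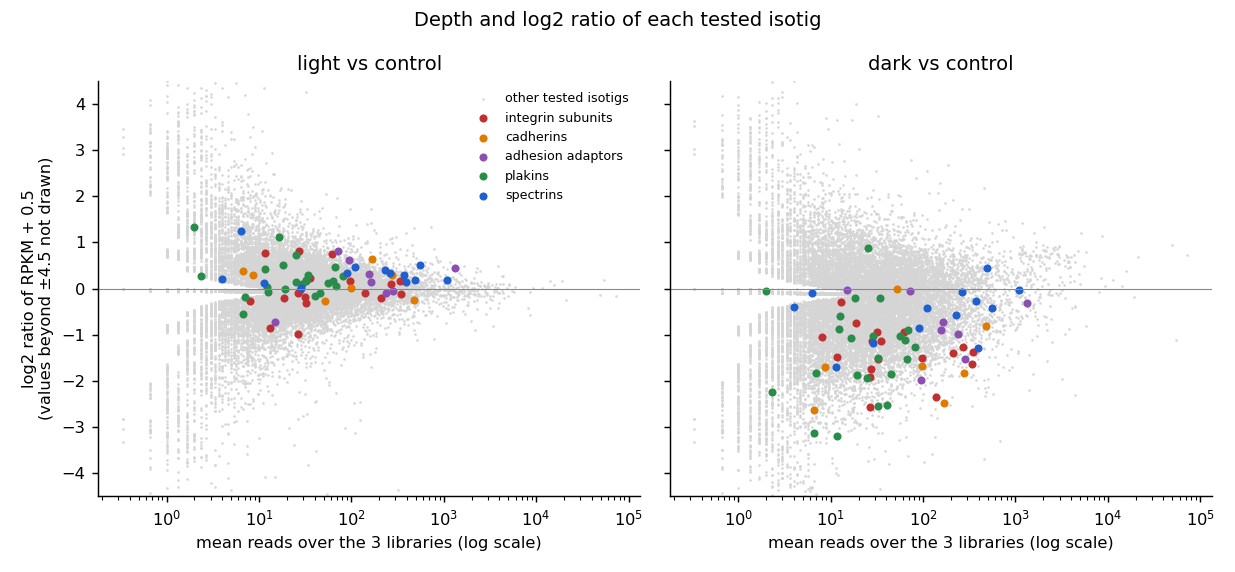
Log2 ratio of RPKM + 0.5 against mean reads over the 3 libraries (log scale) for all tested isotigs (grey) and 5 classes of members (coloured), light vs control (left) and dark vs control (right). In the dark panel integrins, cadherins and plakins lie below 0 at every depth, apart from the dystonin isotig at 0.88. Spectrins with a mean of at least 100 reads lie between -1.28 and 0.45, with the most abundant at -0.03.

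Set directly against each other, the light library exceeded the dark one for most members. At the 2-fold limit 70 of the 115 tested members were higher in light and 0 lower, against 26.2% and 8.09% of all isotigs. Size factors gave 54 and 0, against 18.5% and 14.0%. Of the orthologies 22 of 36 were higher and 0 lower, against 29.9% and 2.21%. Flamingo receptor 2 was 8.97-fold higher in light (6.31 to 13.1), integrin beta 1 3.05-fold (2.75 to 3.39), ADAM10 3.34-fold (2.89 to 3.87) and dystonin 2.67-fold (2.34 to 3.05). Spectrin alpha was 1.13-fold higher (1.03 to 1.23) on summed reads. This comparison uses the same libraries as those against control and is no separate evidence.

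Other genes of the adhesion machinery were taken by name from a list of 34 words, of which 18 matched. The list held 62 tested isotigs, among them 4 named angiotensin-converting enzyme 2 or neurotensin receptor that the letters of tensin took in. In the dark 30 were 2-fold or more below control and 2 above, against 24.0% and 7.09% of all isotigs. Under size factors the counts were 20 and 3, against 16.6% and 11.8%, and the median log2 ratio was -0.98 on the deposited scale. Without those 4, 29 of 58 were lower and 2 higher. Src (isotig13369), a kinase that signals from adhesion sites, had 302, 131 and 411 reads and was 2.49-fold lower in the dark (2.02 to 3.08). The scaffold breast cancer anti-estrogen resistance 1 (isotig16045), known as p130Cas, had 57, 16 and 53 reads, 3.85-fold lower (2.18 to 7.19). Nidogen, a basement membrane protein, had 1819, 821 and 2454 reads over 7 isotigs. Not all were low: alpha-actinin, an actin crosslinker, had 2559, 2521 and 2934 reads over 2 isotigs, and parvin, which binds paxillin and actin, had 228, 206 and 226. Laminin names had 2012, 1743 and 2446 reads over 12 isotigs, 1.25-fold lower in the dark (1.17 to 1.33). Band 4.1 names, of a family that binds spectrin and actin, had 540, 305 and 679 reads over 6 isotigs. Radixin, which ties membrane proteins to actin, had 1512, 1241 and 1934 reads over 3 isotigs. Under strong light 5 of the 62 were higher and 3 lower, near the 7.77% and 7.22% of all isotigs.

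Some features the rule did not use were compared. The members had a median length of 1032.5 bases (166 to 4338). For all isotigs averaging 20 reads or more, median dark log2 ratios were taken by length. They were -0.22 up to 600 bases, -0.27 from 600 to 900, -0.29 from 900 to 1200, -0.28 from 1200 to 1600 and -0.32 above 1600. Role-class members had -0.50 (8 isotigs), -1.13 (11), -1.51 (13), -1.63 (7) and -0.86 (14) in the same bins. Spectrins made up 4, 1, 1, 0 and 4 of these, so length and class are mixed in the medians. The tested members were covered by reads over a median of 73.8% of their length in control, 53.8% in the dark and 75.9% in light, per the deposited coverage. The same median over all isotigs was not taken, and coverage depends on read counts, so this is no separate evidence. Of the 138 members 21 carried the gene ontology term membrane, or 15.2%, and among all isotigs 382 carried it. The rule picked names of membrane proteins such as integrins and cadherins, so this share is no separate evidence. Marker names of other tissues were summed in the same way as the integrins, whose reads were 2.79-fold lower in the dark (2.57 to 3.03). Reads of muscle names were 1.30-fold lower (1.26 to 1.35), of nervous names 1.08-fold lower (1.04 to 1.13), of digestive names 1.18-fold lower (1.14 to 1.21) and of dermal matrix names 1.05-fold lower (1.03 to 1.06), and of coelomocyte and immune names 1.07-fold higher (1.05 to 1.09). These sums rest on a few abundant names, and some scarcer names in them were lower by more. Of the 97 isotigs with muscle names, 41 rest on E-values above 1e-10 and are uncertain. Nervous names without tubulin beta, a set chosen after seeing the data, had 431 control, 185 dark and 388 light reads, 2.52-fold lower in the dark (2.12 to 3.01). Troponin and tropomyosin names, likewise chosen, had 71, 28 and 48 reads and were 2.74-fold lower (1.75 to 4.41), but the names of all 4 isotigs rest on E-values above 1e-10. Within the muscle names, myosin heavy chain was 1.61-fold lower (1.53 to 1.70), while titin, with 3009, 3080 and 3022 reads, was 1.06-fold lower (just above 1 to 1.11). Among immune names, scavenger receptor (1 isotig with 55, 13 and 61 reads) was 4.58-fold lower (2.47 to 9.13). Macrophage names were 1.94-fold lower (1.47 to 2.57). The far more abundant mannose receptor names (15385, 18928 and 15144 reads) were higher in the dark. Complement component names were 1.04-fold lower (1.01 to 1.07), and galectin (157, 179 and 228 reads) had no detectable difference. Among dermal matrix names, tenascin (6424, 7870 and 6390 reads) was higher in the dark. Aminopeptidase N, among digestive names, was 2.02-fold lower (1.56 to 2.64). The intervals of nervous names without tubulin beta, of troponin and tropomyosin, of scavenger receptor and of aminopeptidase N overlap that of the integrins. Their part in the result was not tested.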

How the data were processed

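Total RNA was DNase-treated, messenger RNA was taken on oligo(dT) beads, fragmented and copied from random hexamers, per the labels' protocols; no strand marking or molecular identifiers are recorded. CASAVA 1.5 was used, per the submitters' processing notes; assembler, aligner and read filters are not stated in the labels or headers. Each library has a table with the count of uniquely assigned reads that the authors deposited for each isotig, its length, the deposited coverage percent and the RPKM the authors computed. Counts summed to the header total, and isotigs missing from a table were taken as 0.

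Log2 ratios used the deposited RPKM plus a pseudocount of 0.5, a filter of a mean of at least 1 RPKM and a 2-fold limit. Orthology values sum all isotigs of a KEGG orthology. Python 3.11.15, pandas 2.3.3 and scipy 1.17.1 were used, with TMM factors from edgeR 4.0.16; no count model was fitted. The interval and median steps were tested on simulated data. Isotigs named singly are the 10 highest and 10 lowest ratios with a mean of at least 20 reads in light and in dark vs control, the 2 most abundant of each class, those with 0 reads in a library and at least 10 in another, and those with a mean of at least 100 reads and 2-fold apart. Others were named after their values were seen. Members, lists and rules were chosen with earlier results of these data known. No isotig sequences were used here, and the reference gene table shares no identifiers with the isotigs.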

Additional observations from a re-analysis of the deposited data

How the results depend on the processing

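Signs of the member medians were kept in all 3 comparisons under every setting tried. In dark vs control the median log2 ratio of -1.08 became -0.82 with size factors and -0.83 with TMM factors, and in light vs dark 1.27 became 0.94 and 0.95, as the median of all isotigs moved with them. The counts of members at least 2-fold apart were 9 (light vs control), 68 (dark vs control) and 70 (light vs dark). In that order they were 0, 43 and 46 at a mean of at least 20 reads, 3, 43 and 46 with role classes only, 0, 14 and 24 at a 4-fold limit, 3, 20 and 22 of 36 for summed orthologies, and 3, 21 and 20 of 36 for the isotig with most reads of each orthology, a setting chosen after seeing the data. The light vs control count was also 18 without a filter, 3 at a mean of at least 5 RPKM and 27 at a 1.5-fold limit. Smaller counts with fewer isotigs follow from the construction. Shares of all isotigs at the 4-fold and 1.5-fold limits, without a filter and at 5 RPKM are not given here. These counts therefore show only how the number called depends on the setting. Totals without the 20 most abundant isotigs, other pseudocounts and the E-value limit kept each count within 1.5 times. On changing the scaling 15 of the 115 tested members changed sign in dark vs control and 2 in light vs control. No paired analysis was possible because each group has 1 library. Depth limits most single isotigs: the median member had 19.3 reads averaged over the libraries.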

Other observations

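Of the members, 21 carry a number next to that of another isotig of the same orthology. In the dark, dystonin isotig08409 was 7.98-fold lower (3.79 to 19.3) and its neighbour isotig08410, with 77 control, 43 dark and 84 light reads, 1.94-fold lower (1.32 to 2.88), and these intervals do not overlap. Read coverage of isotig08409 went from 31.0% of its length in control to 7.08% in the dark and 29.1% in light, while that of isotig08410 was 28.2%, 22.8% and 24.8%. The neighbouring spectrin beta isotigs isotig09523 and isotig09524 were 2.45-fold (2.07 to 2.90) and 2.30-fold lower (1.23 to 4.46), the latter averaging 28.7 reads. The other spectrin beta isotigs averaging 100 reads or more had log2 ratios between -0.58 and -0.03. Below that depth isotig20561 was 1.81-fold lower (1.28 to 2.57) and isotig16808 3.79-fold (1.19 to 15.8). The scarcer isotig18120 and isotig05420 had log2 ratios of -0.09 and -0.40. The pair was thus not alone in being low. These pairs were picked after their values were seen.

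For dystonin the unit changed the size of the dark difference. Summed reads gave 2.41-fold lower, whereas summed RPKM gave a log2 ratio of -0.73 (464.5 RPKM in control and 279.2 in the dark). The 166-base isotig29620 had 61.4 RPKM in control and 114 in the dark.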
